A study of Homo sapiens with 4 samples.

Results

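FABP3, FABP4, FABP5, FABP6 and FABP7, which encode 5 intracellular fatty acid binding proteins, were followed in melanoma cells exposed to a medium-chain fatty acid. They were picked by gene symbol from a table of 56832 genes, and all 5 symbols were found. Octanoate and vehicle values of these genes were known when they were picked, so their differences are given as descriptions, with no p-value, and how many of them passed a threshold supports nothing. The cells were A375, an established human melanoma line with wild-type as the labelled genotype, kept in serum-supplemented DMEM. One group received 1 mM octanoate and the other its solvent isopropanol, both for 48 h, and each group has 2 libraries made from total RNA. The labels do not say whether the libraries of a group came from separate cultures, so p-values measure the spread between these libraries, which may be technical.

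Fatty acid binding proteins are small cytosolic proteins that hold a fatty acid or a related lipid inside a barrel of beta strands. They move these ligands, which dissolve poorly in water, between membranes, lipid droplets, mitochondria, peroxisomes and the nucleus, where some of them hand ligands to nuclear receptors of the PPAR family. FABP3 is the form of heart and skeletal muscle, FABP4 that of adipocytes, macrophages and some endothelial cells, and FABP5 the epidermal form. FABP6 binds bile acids in the ileum, and FABP7 is the form of radial glia and other neural progenitors and is found in many melanomas.

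Depth and identity of the libraries were checked first. Recovered reads per library ranged from 67785956 to 78005035. Of 8 melanoma markers, 7 had a mean of at least 10 normalised counts, and their summed level was 45149 to 49400 in vehicle and 38666 to 43758 in octanoate. Most of that sum came from SOX10, a transcription factor of the neural crest and the melanocyte lineage, which ranged from 34072 to 41363. TYR, the rate-limiting enzyme of pigment synthesis, was close to absent, with 1.93 to 3.93 normalised counts. MLANA (34.9 to 52.0), PMEL (65.8 to 98.2) and DCT (10.6 to 30.0) were also low beside SOX10. MITF ranged from 2414 to 3533, S100B from 1746 to 4234 and S100A1 from 127 to 167. Throughout, a normalised count is a read count divided by one size factor per library, and it compares the same gene between libraries.

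Windows before the RefSeq start sites (GRCh38.p14) were at hand for FABP3, FABP6 and FABP7. The stretch before the RefSeq start of FABP6 is shown because it carries an inverted repeat of the kind bound by nuclear receptors. It is on the plus strand at chr5:160229256-160229429 and stops where a first exon begins in the GENCODE 29 gene models, and capitals mark the repeat.
FABP6: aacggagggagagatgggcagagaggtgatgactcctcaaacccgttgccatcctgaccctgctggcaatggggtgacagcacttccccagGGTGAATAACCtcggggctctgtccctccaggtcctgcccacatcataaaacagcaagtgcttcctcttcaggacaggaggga
The letters of this repeat, with any middle base allowed (GGTGANTAACC), were taken from FABP6 itself, so finding it there is no result. It starts 159 bases before the RefSeq start of FABP6. On both strands, it was present in the 250 bases before 7 of 35116 RefSeq starts (0.0199%), and no match was found before FABP3 or FABP7. The element AGGTCA, which PPAR and RXR dimers bind as a direct repeat, occurred before 12.1% of these starts, and 2 copies of it in a row with 1 base between them before 6 starts (0.0171%). Neither was found in the windows of FABP3, FABP6 or FABP7. A match describes the letters and was not tied to any binding.

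Over the 5 genes, the groups did not overlap for any: FABP4, FABP5 and FABP6 had higher values in both octanoate libraries than in both vehicle libraries, and FABP3 and FABP7 had lower ones. Such a separation was common in these data, holding for 63.1% of the 20250 tested genes. All 5 passed the filter on low values, a mean of at least 10 normalised counts over the 4 libraries, FABP4 only through its octanoate libraries. At an adjusted p under 0.05 in limma, 3 were called higher and 1 lower, where 29.9% of all tested genes were called (16.2% higher, 13.7% lower). As the genes were chosen from this contrast, nothing is read from that count. The authors' deposited table calls the same number, 4, where it calls 12.9% of its genes with an adjusted p. The plot of normalised counts by library gives all 20 values.

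**Figure D1:**
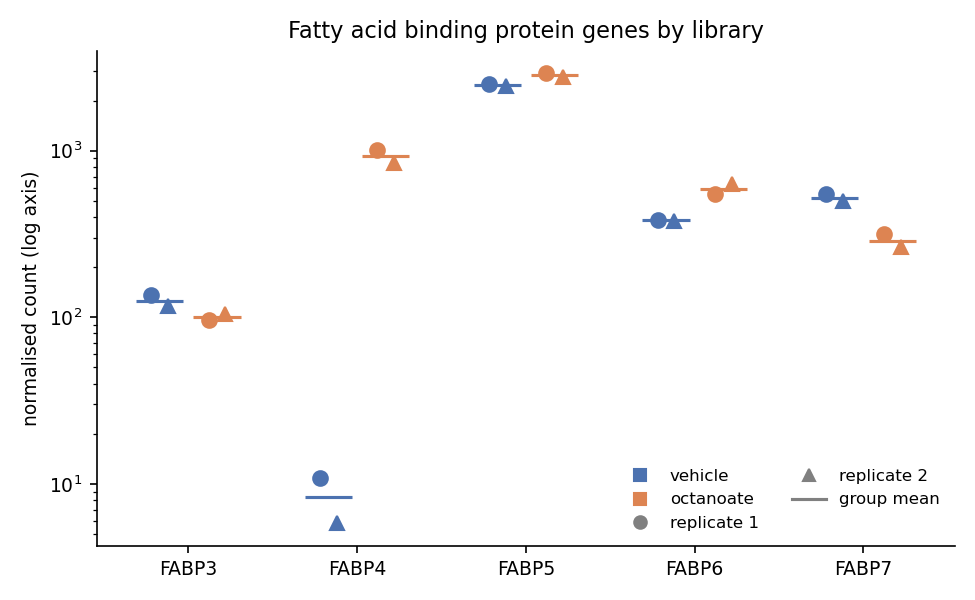
Normalised counts (log axis) of FABP3 to FABP7 in each library, with vehicle in blue, octanoate in orange, circles and triangles for replicates 1 and 2, and lines for group means. FABP4 stands at 5.81 and 10.8 in vehicle and at 842 and 1007 in octanoate, while the other genes shift by less than 2-fold.

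GENCODE 29 (GRCh38, the assembly that hg38 in the submitters' processing notes refers to) places the 5 protein-coding genes on 4 chromosomes. FABP3 lies at chr1:31365625-31376850 on the minus strand, FABP6 at chr5:160187367-160238735 on the plus strand and FABP7 at chr6:122779475-122784074 on the plus strand. FABP5 at chr8:81280363-81284777 (plus strand) and FABP4 at chr8:81478419-81483263 (minus strand) stand in one cluster with the family members PMP2, FABP9 and FABP12.

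FABP4, which binds long-chain fatty acids in fat cells and interacts there with hormone-sensitive lipase, was barely expressed without octanoate. In normalised counts, vehicle gave 10.8 and 5.81 and octanoate 1007 and 842. The vehicle values rest on 11 and 6 reads, with exact 95% Poisson intervals of 5.49 to 19.7 and 2.20 to 13.1, and the octanoate values on 1046 and 777 reads. Both treated libraries thus stood far above both untreated ones. In such bulk RNA, more cells with the transcript and more transcript per cell cannot be told apart. Summed over libraries and corrected for size factors, FABP4 was 112-fold higher under octanoate, with an interval of 69.8 to 193 from counting error alone. On the log2(normalised count + 1) scale used for all differences below, its difference was 6.68 (SE 0.22, n = 2 per group), the largest rise of the 20250 tested genes; the authors' deposited table lists 6.80. With a pseudocount of 5 in place of 1 the difference was 6.15.

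FABP6, the ileal bile acid binding protein, was detected at moderate depth in these cells. Normalised counts were 383 and 381 in vehicle and 549 and 629.7 in octanoate. The vehicle libraries were nearly equal, and both octanoate libraries were above them although they differed from each other. The fold was 1.54 (counting interval 1.40 to 1.69) and the log2 difference 0.62 (SE 0.10, n = 2 per group), against 0.62 in the authors' deposited table. AC008609.1 overlaps FABP6 on the opposite strand over 113 bases. Counts per gene do not tell the long FABP6 transcripts from the short one that starts beside the repeat shown above.

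FABP5, which carries fatty acids and retinoic acid to nuclear receptors in keratinocytes, was the most abundant of the 5. It had 2525 and 2458 normalised counts in vehicle and 2918 and 2777 in octanoate. Both octanoate libraries lay above both vehicle libraries, by a small margin. The fold was 1.14 (counting interval 1.10 to 1.19) and the log2 difference 0.19 (SE 0.06, n = 2 per group). Transcripts of 8 other genes share sequence with FABP5 at 95% identity or more over at least 100 bases, the longest stretch being 680 bases with the pseudogene FABP5P3, and an exon of the antisense gene AC009902.2 overlaps it, so its count is uncertain.

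FABP7 moved the other way. This brain-type protein binds omega-3 fatty acids such as docosahexaenoic acid. Its normalised count was 549 and 498 in vehicle and 315 and 263 in octanoate, so that even the lower vehicle library was above both octanoate libraries. The fold was 0.555 (counting interval 0.501 to 0.615) and the log2 difference -0.86 (SE 0.11, n = 2 per group), against -0.85 in the authors' deposited table. In the order of all tested genes by log2 difference, FABP7 was number 545 counted from the largest fall.

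FABP3, the muscle form, had the fewest reads of the 5 in octanoate. It had 135 and 116 normalised counts in vehicle and 96.3 and 104 in octanoate, and only 96 to 138 reads per library. The groups stood apart by 12.2 normalised counts, less than the 19.2 between the vehicle libraries. Its log2 difference was -0.32 (SE 0.17, n = 2 per group), and it was -0.21 without vehicle 1 and -0.43 without vehicle 2. The fold was 0.794, and counting error alone gave an interval of 0.656 to 0.960.

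**Figure D2:**
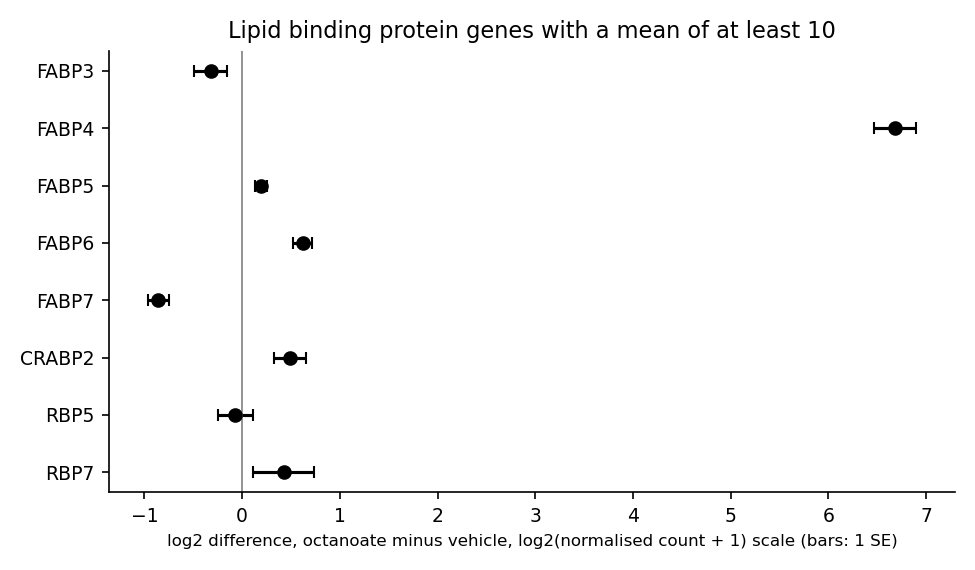
Log2 difference of octanoate minus vehicle (horizontal axis, bars 1 SE) for FABP3 to FABP7 and for the 3 other lipid binding protein genes with a mean of at least 10. FABP4 lies at 6.68, whereas the other 7 lie between -0.86 and 0.62.

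Counts were set on a scale per transcript length to compare the genes with each other, as reads per kb of merged exons scaled to the library size (RPKM). In vehicle the order was FABP5 (16.1 and 16.4 RPKM), FABP6 (4.36 and 4.52), FABP7 (2.66 and 2.52), FABP3 (1.75 and 1.57) and FABP4 (0.102 and 0.0576), and no neighbours in it overlapped. In octanoate FABP4 (9.61 and 8.21 RPKM) came to the second place after FABP5 (18.7 and 18.2) and above FABP6 (6.28 and 7.36). FABP7 (1.54 and 1.31) and FABP3 (1.25 and 1.38) overlapped at the bottom of the order in octanoate. Lengths matter here. When each gene was given its shortest protein-coding transcript instead, FABP4 (14.3 and 12.2 RPKM) and FABP6 (12.8 and 15.0) overlapped in octanoate, and FABP7 (4.09 and 3.49) stayed above FABP3 (2.05 and 2.27).

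Among 18747 protein-coding genes matched by name, FABP4 stood above 31.0% and 26.4% in vehicle and above 76.6% and 73.5% in octanoate. FABP5 was above 85.1% to 87.2% of these genes in every library. FABP3 stayed in the middle of the range, above 46.6% to 50.3%. Summed over the 5 genes, the level was 25.0 RPKM in each vehicle library and 37.4 and 36.5 RPKM in the octanoate libraries. FABP5 made up 64.5% and 65.4% of that sum in vehicle and 50.1% and 49.9% in octanoate. The share of FABP4 went from 0.410% and 0.230% to 25.7% and 22.5%, and the share of FABP7 from 10.7% and 10.1% to 4.11% and 3.60%. These sums and shares rest on merged exon lengths and, like the order of the genes, depend on the lengths chosen.

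**Figure D3:**
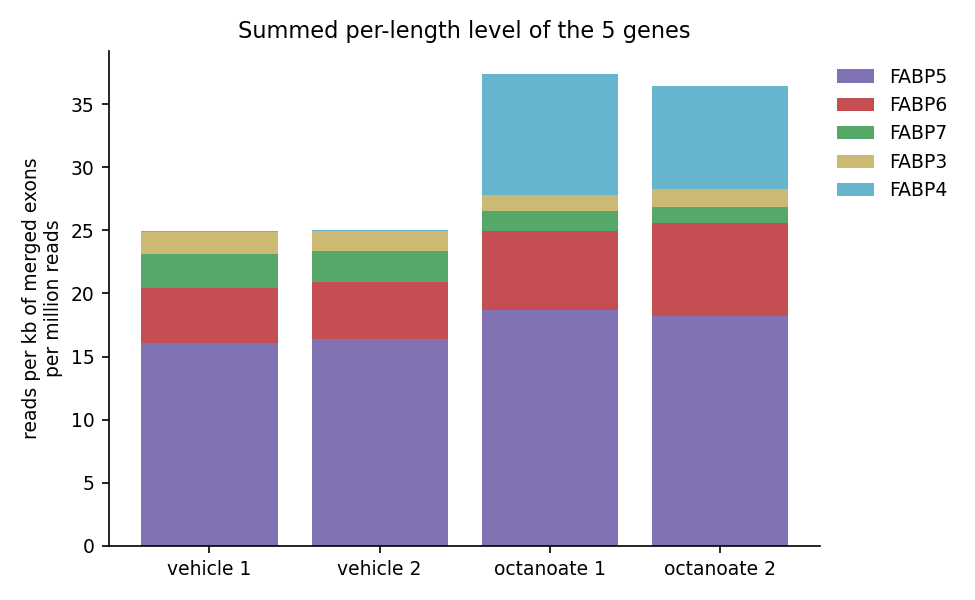
Stacked levels of FABP5, FABP6, FABP7, FABP3 and FABP4 in RPKM (vertical axis) for each of the 4 libraries. Both vehicle bars reach 25.0 and the octanoate bars 37.4 and 36.5, and the FABP4 segment is visible in the latter only.

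Most other members of the family were at or near 0 reads. Of 11 other intracellular lipid binding protein genes, 8 had a mean under 10 normalised counts and were not tested. FABP1, the liver form, had 1 to 4 reads per library, FABP2, the intestinal form, 0 to 4 and PMP2, the myelin form, 3 to 5. FABP9 had 1 read in each library and FABP12 none, for which the one-sided 95% Poisson limit is 3 reads per library. CRABP2, which carries retinoic acid to its nuclear receptors, was the one called gene among the 3 tested (33.3%, against 29.9% of all tested genes). It had 91.3 and 93.0 normalised counts in vehicle and 139.6 and 120.3 in octanoate. The log2 difference was 0.49 ± 0.17 (SE), with an adjusted p of 0.0289 by limma. CRABP2 was not called by DESeq2, without a filter, without an intensity trend or when vehicle 1, vehicle 2 or octanoate 1 was left out. RBP5 (log2 difference -0.07, SE 0.18) and RBP7 (0.43, SE 0.31), both retinol binding proteins, were not called.

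**Figure D4:**
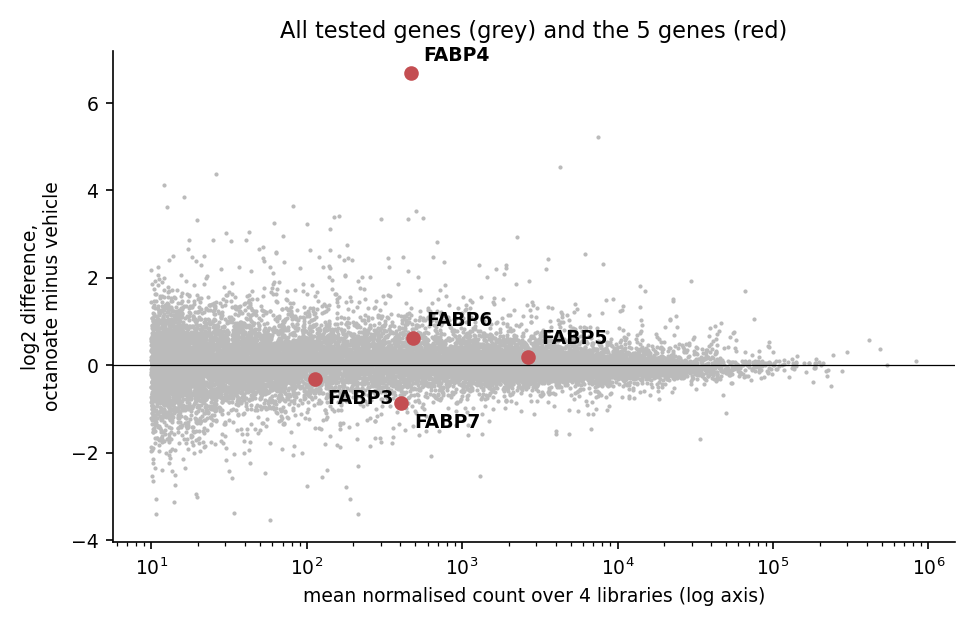
Log2 difference of octanoate minus vehicle against the mean normalised count (log axis) for the 20250 tested genes in grey and FABP3 to FABP7 in red. FABP4 is the highest point of the plot, and the other 4 lie within the grey cloud.

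The genes around FABP4 and FABP5 on chromosome 8 were read as well. The genes next to FABP4 on each side, FABP9 and FABP12, were at 1.08 normalised counts or less in every library. Of 12 neighbouring genes 9 were tested, and 3 of these (33.3%, against 29.9% of all tested genes) were called, each of them higher. CHMP4C, which encodes a subunit of the ESCRT-III membrane remodelling complex, went up from 105 and 107 to 184 and 191 normalised counts, or 0.82 ± 0.15 (SE) on the log2 scale with an adjusted p of 0.000138 by limma. ZFAND1, a zinc finger protein of stress granule clearance, rose by 0.30 ± 0.06 (SE) on the log2 scale with an adjusted p of 0.000485 by limma. Both counts are uncertain, since these genes overlap on opposite strands and share 186 bases. The third was SNX16, named after its value was seen, at 0.29 ± 0.07 (SE, adjusted p 0.00343 by limma), which LINC02235 overlaps on the opposite strand. Calls of lower neighbours were 0 in limma, edgeR and DESeq2, also at an unadjusted p under 0.05. The median over the 9 tested neighbours was 0.14, against 0.01 for all tested genes.

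**Figure D5:**
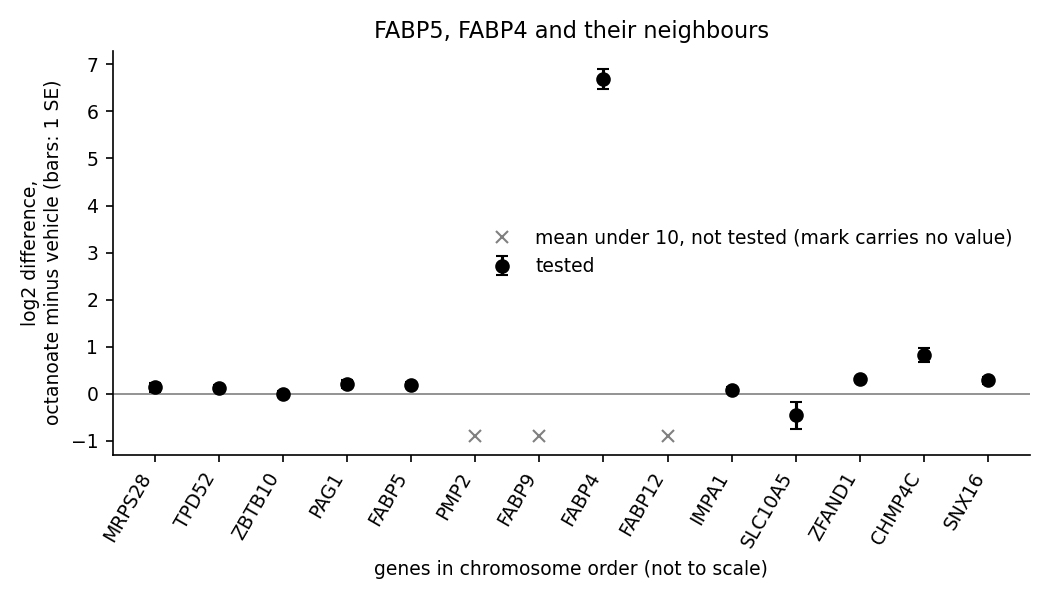
Log2 difference of octanoate minus vehicle (vertical axis, bars 1 SE) for FABP5, FABP4 and 12 neighbouring genes in chromosome order, which is not to scale. FABP4 lies at 6.68 and the other 10 tested genes lie between -0.46 and 0.82; crosses mark 3 genes with too few counts to be tested and carry no value.

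FABP4 is a known PPAR target gene, and a list of 22 other target genes of the PPAR family was set beside it. In this list 20 genes were tested, 14 were called higher and 1 lower (75.0% called, against 29.9% of all tested genes). The other 5 were not called, and the median log2 difference was 0.46. Like the other lists, it was chosen with earlier results of these data known, so its share is a description only. ANGPTL4, a secreted inhibitor of lipoprotein lipase, had 506 and 301 normalised counts in vehicle and 15245 and 13952 in octanoate, or 5.22 ± 0.13 (SE) on the log2 scale with an adjusted p of 3.07e-19 by limma. An exon of RAB11B-AS1 lies opposite ANGPTL4, and whether reads were counted by strand is not stated.

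Receptors that bind such lipids were read next. Of 10 receptor genes for lipid ligands 9 were tested, and 1 was called higher and 4 lower (55.6%, against 29.9% of all tested genes). Their median log2 difference was -0.10. RXRG, the retinoid X receptor gamma, fell from 1351 and 1109 to 656 and 539 normalised counts, or -1.04 ± 0.10 (SE) on the log2 scale with an adjusted p of 1.34e-08 by limma. RARB, a retinoic acid receptor, went from 136 and 168 to 97.2 and 78.0, or -0.79 ± 0.17 (SE) on the log2 scale with an adjusted p of 0.00104 by limma; exons of TOP2B overlap it on the opposite strand. PPARG, named after its value was seen because it is the receptor best known for driving FABP4 in fat cells, had 6793 and 6534 normalised counts in vehicle against 6025 and 5920.4 in octanoate, or -0.16 ± 0.06 (SE) on the log2 scale with an adjusted p of 0.0397 by limma, and it was not called with TMM scaling, without a filter, without an intensity trend or when any single library was left out.

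Genes of fatty acid uptake and activation stand upstream of the binding proteins. Of 17 such genes 14 were tested, with 6 called higher and 1 lower (50%, against 29.9% of all tested genes). Their median log2 difference was 0.16. CD36, a membrane protein that takes up long-chain fatty acids, rose from 53.0 and 45.5 to 252 and 218 normalised counts, or 2.23 ± 0.17 (SE) on the log2 scale with an adjusted p of 3.16e-10 by limma. ACSL3, an acyl-CoA synthetase of the endoplasmic reticulum and lipid droplets, rose by 0.90 ± 0.06 (SE) on the log2 scale with an adjusted p of 1.56e-11 by limma; AC013476.1 overlaps it on the opposite strand.

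Lipid droplets are the store that FABP4 serves in fat cells. In the list of 16 droplet and lipolysis genes 14 were tested. Of these, 8 were called (57.1%, against 29.9% of all tested genes), each of them higher. The median log2 difference was 0.39, and 3 genes of the list were called higher by DESeq2. PLIN2 and CIDEC stand both in this list and in that of the PPAR target genes. Lower calls were 0 in limma, edgeR and DESeq2, and at an unadjusted p under 0.05 they were 1, 1 and 0. PLIN4, which coats droplets, rose by 2.21 ± 0.06 (SE) on the log2 scale with an adjusted p of 4.09e-18 by limma. PLIN2, the droplet coat of most cells, rose by 1.71 ± 0.06 (SE) on that scale, adjusted p 2.48e-16 by limma. Exons of HDGFL2 lie opposite PLIN4. LIPE, the hormone-sensitive lipase that FABP4 interacts with, named after its value was seen, had 301 and 229 normalised counts in vehicle against 356 and 346 in octanoate, or 0.42 ± 0.12 (SE) on the log2 scale with an adjusted p of 0.0125 by limma. LIPE was not called by DESeq2, without vehicle 2, without a filter or without an intensity trend. It shares 369 bases with LIPE-AS1 on the opposite strand.

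FABP6 was set beside 8 genes of bile acid uptake and signalling, of which 5 had a mean under 10. SLC10A2, the ileal bile acid importer, had 0 to 4 reads per library. NR1H4, the bile acid receptor FXR, had 11 and 18 reads in vehicle and 1 and 4 in octanoate, too few for the test. Of the 3 tested genes 2 were called, each of them higher (66.7%, against 29.9% of all tested genes). Lower calls were 0 in limma, edgeR and DESeq2, and 0, 0 and 1 at an unadjusted p under 0.05. FGF19, the hormone that FXR induces in the ileum, had 9.82 and 6.78 normalised counts in vehicle and 30.8 and 22.8 in octanoate, or 1.58 ± 0.42 (SE) on the log2 scale with an adjusted p of 0.00584 by limma, and it was not called without octanoate 1, without a filter or without an intensity trend. FGF19 passed the filter only through its octanoate libraries, and DESeq2, which gave it no adjusted p, called 1 gene of this list higher. ABCC3, an exporter of conjugated bile acids and other organic anions, rose from 1459.6 and 1439.7 to 3766 and 3791 normalised counts, or 1.38 ± 0.06 (SE) on the log2 scale with an adjusted p of 2.78e-14 by limma; it shares sequence with 4 other genes.

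FABP7 was set beside 12 genes of the neural crest and glial programme. All 12 were tested, and 3 were called higher and 4 lower (58.3%, against 29.9% of all tested genes). Their median log2 difference was -0.06. NGFR, the low-affinity nerve growth factor receptor, fell from 11444 and 10653 to 7401 and 6899 normalised counts, or -0.63 ± 0.06 (SE) on the log2 scale with an adjusted p of 1.35e-08 by limma. GFRA2, a receptor for neurturin, went from 19.6 and 28.1 to 9.63 and 9.75, or -1.20 ± 0.41 (SE) on the log2 scale with an adjusted p of 0.0311 by limma. GFRA2 was not called without vehicle 2, octanoate 1 or octanoate 2, without a filter or without an intensity trend. It passed the filter only through its vehicle libraries, with an octanoate mean of 9.69, and DESeq2 gave it no adjusted p. POU3F2 and NFIA, named after their values were seen, encode transcription factors linked to FABP7 expression in glial and melanoma cells. POU3F2 stood at -0.44 ± 0.06 (SE) on the log2 scale with an adjusted p of 8.12e-06 by limma and NFIA at 0.37 ± 0.09 (SE), adjusted p 0.00198. NGFR shares 476 bases with AC015656.1, a gene on the opposite strand. Of the 7 tested melanoma markers, 2 were called lower and 1 higher, where 29.9% of all tested genes were called. The called markers were all named after their values were seen. S100B, a calcium-binding protein of melanocytic and glial cells, went from 4234 and 3741 to 1917 and 1746 normalised counts (-1.12 ± 0.07, SE, on the log2 scale, adjusted p 9.15e-12 by limma). MITF, the master regulator of melanocytes, stood at -0.48 ± 0.06 (SE, adjusted p 2.33e-06 by limma). PMEL, a melanosome protein, stood at 0.55 ± 0.19 (SE, adjusted p 0.0289 by limma) and was not called by DESeq2 or when any single library was left out; exons of CDK2 overlap it on the opposite strand. The part of these markers in the FABP7 result was not tested.

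Since FABP4 marks fat cells, macrophages and some endothelial cells, markers of these types were read in the same libraries. Of 7 adipocyte markers 4 had a mean of at least 10, and ADIPOQ, the adipocyte hormone adiponectin, was at 0 in vehicle 2 and octanoate 2. Summed adipocyte markers ranged from 14927 to 15501 normalised counts in vehicle and from 16009 to 16071 in octanoate. Most of the sum came from ADIPOR2 (12095 and 11933 in octanoate), a widely expressed receptor. Of the 4 tested adipocyte markers 2, LPL and CIDEC, were called higher, where 29.9% of all tested genes were called. CIDEC was not called by DESeq2, without a filter, without an intensity trend, without vehicle 2 or without octanoate 2. Of 6 macrophage markers 2 had a mean of at least 10; the sum over the list was 60.1 to 63.8 in vehicle and 74.8 to 75.1 in octanoate, and CD163 was at 0 in vehicle 1 and octanoate 1. All 6 endothelial markers had a mean of at least 10, and their sum was 625 to 626 in vehicle and 823 to 843 in octanoate. PECAM1, an adhesion molecule of the vessel wall named after its value was seen, had 121 and 122 normalised counts in vehicle and 249 and 221 in octanoate (0.95 ± 0.14, SE, on the log2 scale, adjusted p 1.05e-05 by limma). VWF, a clotting factor of the vessel wall, was the other called endothelial marker (0.50 ± 0.19, SE, adjusted p 0.0479 by limma). Its call was lost by DESeq2, with equal column totals and when any single library was left out, and it shares sequence with the pseudogene VWFP1. The other 4 of the 6 endothelial markers were not called, where 29.9% of all tested genes were called. KDR, the largest part of the sum, had 373 and 376 normalised counts in vehicle and 445 and 449 in octanoate (0.25, SE 0.10). The groups of CDH5 (-0.31, SE 0.45), TEK (-0.16, SE 0.29) and CLDN5 (0.01, SE 0.50) overlapped. The part of these markers in the FABP4 result was not tested.

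Genes with the most similar profile were sought by the Euclidean distance between log2 values over the 4 libraries, each gene centred on its own mean. For FABP4 they were ANGPTL4 (distance 1.47), AREG (2.19) and HSD3B1 (2.63), and no gene came within 0.5. As FABP4 had the largest rise of all tested genes, only genes with large rises could lie nearest to it. AREG, the growth factor amphiregulin, had 393 and 317 normalised counts in vehicle and 8244 and 8098 in octanoate. HSD3B1, a steroid dehydrogenase, had 4.91 and 0 in vehicle and 50.1 and 48.8 in octanoate. It passed the filter only through its octanoate libraries, and it shares 167 bases with HSD3B2. For FABP7 they were ZNF425 (0.03), SPP1 (0.05), which encodes osteopontin, and COL15A1 (0.05), with 1055 genes within 0.5. For FABP6 they were SNORA13, CTC-510F12.2 and ITGA6, for FABP5 BSDC1, RNF41 and FAM214B, and for FABP3 AL844908.5, PPT2 and CRYL1. These were among 4541, 14057 and 11156 genes within 0.5. The profiles of FABP7, FABP6, FABP5 and FABP3 over 4 libraries thus single out no gene.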

How the data were processed

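RNA of 4 A375 libraries was sequenced. The submitters' processing notes name bcl2fastq 2.17, Trim Galore, STAR 2.4, Picard, HTSeq 0.9.1, DESeq2 and hg38; the annotation and the use of strand are not given in the sources used here. In the first deposited table each library has one signal per gene, named there as a DESeq2 normalised count. Dividing by the smallest positive value of a library gave whole reads for 100% of positive values (tolerance 1e-06). The second deposited table holds the authors' mean signal, log2 fold change with its standard error, test score and p-value.

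Log2(normalised count + 1) was modelled by limma 3.58.1 under R 4.3.3 (intensity trend, treatment as the only term, mean of at least 10, Benjamini-Hochberg adjustment over 20250 genes, two-sided, called under 0.05). This understates changes of low genes. An exact test of 2 against 2 libraries cannot give a p below 0.333. Replicates were distinct, with a chi-square per degree of freedom of 4.77 in vehicle and 6.50 in octanoate. Fold intervals are exact (95%, scipy 1.17.1) and cover counting error only. Gene models came from GENCODE 29 (29527 of 56832 symbols matched), shared sequence from blastn 2.17.0. edgeR 4.0.16 and DESeq2 1.42.0 on recovered reads were alternatives.

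The genes, lists, motifs and tests were chosen with earlier results of these data known. Named were the 5 genes, tested family members, per list the 2 called genes with the largest difference and the 3 nearest profiles per gene; others were chosen after their values were seen. 1 result under this rule is not reported here.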

Additional observations from a re-analysis of the deposited data

How the results depend on the processing

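The 5 genes kept the sign of their log2 difference in each of the 14 alternatives. Ranges were -0.43 to -0.21 for FABP3, 6.15 to 7.08 for FABP4, 0.16 to 0.23 for FABP5, 0.52 to 0.72 for FABP6 and -0.99 to -0.73 for FABP7; FABP4 moved by more than its replicate spread with a pseudocount of 5 (6.15). Of these genes 4 were called as reported and 2 without an intensity trend, where FABP5 and FABP6 were lost; FABP5 was also lost without the filter, without vehicle 1, without vehicle 2 and without octanoate 1. Over all genes, 6048 were called, 2595 without a filter and 1625 without an intensity trend; the share that was higher, 54.1%, was 67.4% without the trend and 64.5% without vehicle 1. Leaving out one library, which sets 1 library against 2 and assumes that the lone one varies like the others, gave 4295 to 4757 calls. Over the lists 46 genes were called, 28 without a filter and 18 without the trend. Without a filter, 3 droplet genes were called higher (8 as reported), 1 receptor lower (4) and 1 neural crest gene higher (3); without the trend these were 3, 0 and 0, with 8 PPAR target genes higher (14), 2 neural crest genes lower (4) and 1 neighbour higher (3). Without vehicle 2, 4 droplet genes were higher, 2 receptors lower and 1 neural crest gene higher; without octanoate 2 the last counts were again 2 and 1. edgeR called 6480 genes and DESeq2 4180, with 1 bile acid gene higher in the latter (2), and 4 of the 5 genes each. Of the 46 other named genes no called one changed direction, the signs of RBP5, CDH5, TEK and CLDN5, none of them called, varied with the setting, and 20 lost their call in at least 1 alternative.

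What a replicate number stands for is not in the labels. With it as a replicate block 8376 genes were called, 4 of the 5 genes among them and 5 of the neighbours (3 as reported). The deviations of same-numbered libraries had a correlation of 0.126 over genes. Depth limits FABP4 in vehicle, FABP1, FABP2, FABP9, FABP12 and NR1H4, for which differences were not detectable or rest on a few reads.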
